A study of Homo sapiens with 9 samples.

Results

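A pooled sgRNA screen in U251, a human glioma cell line, was read as a dose series of temozolomide, the DNA-alkylating drug used against glioma. All 9 of the 9 libraries entered: temozolomide at 0, 200 and 1500 µM, with 3 replicates, numbered 1 to 3, per dose. The doses were coded as steps 0, 1 and 2, the replicate number was kept as a block, and guides and genes that moved steadily with the step, or that peaked or dipped at the middle dose, were described. Of 11170 guides, 10 against each of 1117 genes, 10337 had at least 10 counts in at least 3 libraries and were tested. The other 833 were not, among them 148 at 0 counts in every library. All cells of every group carried stably expressed sgRNAs, and the labels state an exposure of 72 hours. Titles of the samples state µM, but nM stands in the treatment protocol, which leaves the unit of dose unsettled, and µM serves here only to name the groups. No source used here states the nuclease, the vector or whether replicates were separate cultures, so every p-value measures only how much these libraries vary, and that variation may be technical. The counts are of guide DNA and hold no marker that could check the labelled cell line.

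Ubiquitin is joined to proteins through activating (E1), conjugating (E2) and ligating (E3) enzymes. The largest ligase class is built on cullins, which are switched on by the ubiquitin-like protein NEDD8 and read their substrates through F-box, BTB and SOCS-box proteins. Many target genes of the library belong to this system. In a pooled screen the share of a guide's counts follows the share of cells that carry it, so a level that falls with dose means fewer such cells relative to the others, not an absolute loss. Temozolomide methylates DNA, and the lesion that kills most cells is removed by MGMT and read by mismatch repair. Of 17 listed genes of this repair (MGMT, mismatch and base excision repair), 0 were among the measured genes, so they were not analysed here. Nor was DOK6, a docking adaptor named in the series title.

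Replicate number, not dose, carried most of the variation. Over the 10337 tested guides, 79.3% of the sum of squares of log2(CPM + 5) lay between replicate numbers, 7.21% between doses and 13.5% in the residual, where CPM is counts scaled to a common library total with TMM factors. The mean square for dose was 1.07 times that of the residual for guides and 1.20 times for genes. The change at 1500 µM over 0 µM correlated across guides at Pearson r of 0.0173, 0.0316 and 0.0532 between pairs of replicates, and across genes, each the mean of its guides, at 0.0498, 0.0901 and 0.128. These are descriptions across guides or genes, which are not independent of each other. Thus a guide's change in 1 replicate said little of its change in another, while the SD of that change over guides was 0.753 to 0.992 on the log2 scale. Total counts ran from 1852340 to 2790563 per library, and a count of 0 allows up to 3 counts, or 1.06 to 1.83 CPM, for counting error only.

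A few guides held a larger share of the counts at the highest dose, though no library measure passed after adjustment. The 10 most abundant guides held 3.46% ± 1.42, 3.77% ± 1.46 and 13.3% ± 6.99 of counts in the 0, 200 and 1500 µM groups (SD, n = 3 each), and the share was higher at 1500 than at 0 µM in 3 of 3 replicates. In an exact two-sided permutation test of the slope within replicate numbers, which cannot go below 0.00926, p was 0.0463 and, after Benjamini-Hochberg adjustment over 5 library measures, 0.139. The single most abundant guide took 2.51%, 1.13% and 0.367% of the untreated libraries of replicates 1, 2 and 3, then 0.410%, 0.768% and 2.60% of the middle dose libraries, and 6.07%, 18.6% and 4.97% of those at 1500 µM (exact p 0.0556, adjusted 0.139). The 1500 µM values all lay above every value of the other doses. The Gini index over all guides gave no such direction. It averaged 0.657, 0.629 and 0.651 from low to high dose and was higher at 1500 than at 0 µM in 1 of 3 replicates. Its exact p was 0.694 (adjusted 0.694). The effective number of guides averaged 4708, 5075 and 3289 (exact p 0.167, adjusted 0.278). It was lower at 1500 than at 0 µM in 3 of 3 replicates, with 4013 and 3510, 4667 and 1727, and 5445 and 4630 at 0 and 1500 µM. The most abundant guide was XIAP.8 in replicate 1 at 0 µM, EP300.4 in replicate 1 at 200 µM and UBE2A.7 in the other 7 libraries. Guides without a count numbered 1402, 1696 and 1540 in replicate 1, 1237, 1415 and 1282 in replicate 2, and 1120, 1559 and 1188 in replicate 3, from low to high dose. They were most frequent at the middle dose in 3 of 3 replicates, and their slope with the dose step had an exact p of 0.611 (adjusted 0.694).

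At gene level, guides against TRAF3 fell with dose. TRAF3 is a ring-finger ligase and adaptor that keeps the kinase NIK low and so restrains alternative NF-κB signalling. Counts summed over its 10 guides gave 1969.6, 1074 and 773 CPM in replicate 1, 3485, 2388 and 1482 CPM in replicate 2, and 1014, 809 and 693 CPM in replicate 3, at 0, 200 and 1500 µM. Both steps went down in every replicate, while the doses overlapped between replicates because the levels of the replicates differ. The level at 1500 µM was 0.393, 0.425 and 0.683 times that at 0 µM in replicates 1, 2 and 3. The fitted slope of the sum was -0.46 ± 0.07 log2 per dose step (SE, edgeR's quasi-likelihood test, adjusted p = 0.00564 over 1117 genes), or 0.727-fold at each step. TRAF3 was the single gene that passed as lower in this test, 0.0895% of genes, and none passed as higher. At an unadjusted p under 0.05 the summed counts gave 45 genes higher (4.03%) and 64 lower (5.73%).

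A second gene measure, the mean over a gene's tested guides of log2(CPM + 5), gives each guide the same weight. By this measure TRAF3 stood at 6.64, 6.39 and 6.10 in replicate 1, 7.15, 6.70 and 6.31 in replicate 2, and 6.12, 5.79 and 5.55 in replicate 3, from low to high dose. Its slope was -0.32 ± 0.07 per step (limma, adjusted p = 0.0107). Of its 10 guides, 9 had slopes below 0, beside 49.9% of all tested guides (50.1% were above 0), and 4 had an unadjusted p under 0.05, namely TRAF3.10, TRAF3.5, TRAF3.7 and TRAF3.3. TRAF3.10 had 554, 254 and 125 CPM in replicate 1, 268, 232 and 115 CPM in replicate 2, and 405, 252 and 190.4 CPM in replicate 3. TRAF3.5 had 251, 167 and 72.2 CPM, then 109, 76.2 and 46.8 CPM, then 106, 91.8 and 68.9 CPM. These 2 guides were ordered downwards at each step in all 3 replicates, and the remaining guides were not. TRAF3.1 was the most abundant TRAF3 guide at every dose of replicate 2, with 1557, 1135 and 557 CPM there against 17.7, 47.3 and 25.9 CPM in replicate 1. Lower levels, as log2(CPM + 5), at 1500 than at 0 µM were seen for 6, 8 and 7 of the 10 guides in replicates 1, 2 and 3, and for 3 guides in all of them.

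The direction of TRAF3 was below 0 in all 22 alternative fits of each measure, but the call was not stable. For the summed counts it was lost without the replicate block (adjusted p = 0.999), with dose coded linearly (0.184), and without 0 µM replicate 2 (0.107), 1500 µM replicate 1 (0.183), 1500 µM replicate 2 (0.176), all of replicate 1 (0.0627) or all of replicate 2 (0.524).

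FOXL2, a forkhead transcription factor known from ovarian granulosa cells, also passed as lower by the guide mean. It stood at 6.76, 5.89 and 5.80 in replicate 1, 6.76, 6.74 and 6.18 in replicate 2, and 6.56, 6.44 and 6.41 in replicate 3. Each replicate went down at both steps, by little in replicate 3 and mostly at the first step in replicate 1. The slope was -0.28 ± 0.07 (limma, adjusted p = 0.0417), and all 9 tested guides had slopes below 0. Yet only 6, 8 and 5 of the 9 were lower at 1500 than at 0 µM in replicates 1, 2 and 3. In all 3 replicates 3 guides were lower, and 0 went down at each step. With no count filter the slope was -0.22 (limma, adjusted p = 0.333). Without 0 µM replicate 1 the slope was -0.17 (adjusted p = 0.802), and without all of replicate 1 it was -0.18 (adjusted p = 0.838). Its summed counts, 1305, 664 and 595 CPM, then 1386, 1169 and 929 CPM, then 1117, 1054 and 988 CPM, gave -0.26 ± 0.08 (edgeR, adjusted p = 0.309), or -0.14 without 0 µM replicate 1. TRAF3 and FOXL2 were the 2 genes lower by the guide mean, 0.179% of 1117, and none passed as higher. At an unadjusted p under 0.05 there were 51 higher (4.57%) and 40 lower (3.58%). The FOXL2 call was kept in 2 of 12 fits that left out a library or a replicate number and in 3 of 10 other settings.

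The other genes lowest in p among those with slopes below 0 did not pass edgeR's test of sums or limma's test of guide means. EED is a core subunit of the Polycomb complex that methylates histone H3. Its guide mean was 6.48, 6.33 and 5.68 in replicate 1, 5.76, 5.60 and 5.26 in replicate 2, and 6.41, 5.86 and 6.02 in replicate 3, with slopes of -0.28 ± 0.08 (limma, adjusted p = 0.0919) and, for the sum, -0.28 ± 0.06 (edgeR, adjusted p = 0.0895). Replicate 3 did not keep the order. TADA2B and TADA1 are subunits of the SAGA coactivator, which acetylates histones. TADA2B had guide means of 6.34, 5.74 and 5.69, then 5.54, 5.32 and 4.98, then 5.82, 5.39 and 5.24, with a slope of -0.30 ± 0.08 (limma, adjusted p = 0.0919), and TADA1 a slope of the sum of -0.27 ± 0.07 (edgeR, adjusted p = 0.168). TADA2B was ordered downwards in all 3 replicates, and its sum gave -0.22 (edgeR, adjusted p = 0.354). PSMA4, a proteasome core subunit with 4 tested guides, had a guide mean slope of -0.29 ± 0.09 (limma, adjusted p = 0.145). Among the sums, MARCH1, a membrane-bound ligase that acts on MHC class II, had -0.30 ± 0.07 (edgeR, adjusted p = 0.117), and SOCS2, a SOCS-box brake on cytokine signalling, -0.35 (adjusted p = 0.204).

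Among the genes with slopes above 0, none passed edgeR's or limma's test. FBXO43, which holds back the anaphase-promoting complex in meiosis, stood at 4.18, 4.53 and 5.09, then 5.05, 5.15 and 5.43, then 4.50, 4.69 and 4.99, with a slope of 0.30 ± 0.10 (limma, adjusted p = 0.218). PER2, a repressor of the circadian clock, had a slope of the sum of 0.30 ± 0.07 (edgeR, adjusted p = 0.0956), and RNF135, a ligase that acts on the RNA sensor RIG-I, 0.37 ± 0.08 (adjusted p = 0.0956). MED31, a Mediator subunit, had a guide mean slope of 0.27 ± 0.08 (limma, adjusted p = 0.145) with 5 of 5 tested guides above 0, and PSMA6, a proteasome core subunit, 0.25 ± 0.08 (adjusted p = 0.218).

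Summed counts also ranked genes that a single guide carried. UBE2A, the human RAD6A conjugating enzyme of DNA damage tolerance, summed to 3049, 3891 and 62250.3 CPM in replicate 1, 13661, 8775 and 226949.9 CPM in replicate 2, and 4406, 23596 and 45129 CPM in replicate 3. Its slope was 2.07 ± 0.50 (edgeR, adjusted p = 0.117). At 1500 µM nearly all of it was UBE2A.7, with 1756, 2644 and 60917 CPM, then 12591, 7884 and 225740.5 CPM, then 3354, 22572 and 44089 CPM. The guide mean of UBE2A had a slope of 0.22 (limma, adjusted p = 0.0600), or 0.11 without 1500 µM replicate 2, and it turned to -0.05 when each gene's most abundant guide was left out and to -0.21 for the median over guides. EP300, a histone acetyltransferase, had a slope of the sum of 0.76 ± 0.16 (edgeR, adjusted p = 0.0924), which turned to -0.03 without EP300.4, and a guide mean slope of -0.02 (limma, adjusted p = 0.972). DCUN1D1, a co-ligase that promotes cullin neddylation, had 1.19 for the sum (edgeR, adjusted p = 0.168) and 0.16 for the guide mean (limma, adjusted p = 0.455), with slopes above 0 in 3 of 7 tested guides. Other tools called more of these sums. DESeq2 with the block called, of the 1052 genes it gave an adjusted p, 6 higher (0.57%), namely EP300, UBE2A, PER2, RNF135, SOCS1 and DCUN1D1, and 8 lower (0.76%), namely TRAF3, EED, MARCH1, KEAP1, TADA1, WSB2, SOCS2 and MKLN1. Limma-voom called EP300, UBE2A and DCUN1D1 higher (0.269%) and TRAF3 lower (0.0895%).

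No single guide passed the dose trend in edgeR's quasi-likelihood test after adjustment over 10337 guides. At an unadjusted p under 0.05, 125 guides were higher with dose (1.21%) and 265 lower (2.56%). DESeq2's Wald test with the same block called 2 guides higher (0.0193%), EP300.4 and UBE2A.7, and 4 lower (0.0387%), TRAF3.10, WWTR1.1, PELI3.10 and KEAP1.7, and limma-voom called 36 lower (0.348%) and none higher. The 5 highest by p were UBE2A.7 (2.21 ± 0.39 log2 per step), EP300.4 (0.84 ± 0.17), DCUN1D1.3 (1.60 ± 0.39), UBE4A.2 (0.49 ± 0.13) and DCAF12.10 (0.59 ± 0.16), each with an edgeR adjusted p of 0.998. EP300.4 had 2500.2, 3746 and 10597 CPM in replicate 1, 1769, 4192 and 6261 CPM in replicate 2, and 2284, 5264 and 4586 CPM in replicate 3, so all 1500 µM values but that of replicate 3 exceeded every other. UBE4A.2 had 171, 236 and 339.9 CPM, then 59.1, 87.6 and 135 CPM, then 141, 129 and 246 CPM. The 5 lowest were TRAF3.10 (-0.75 ± 0.14), WWTR1.1 (-0.66 ± 0.13), TRAF6.1 (-1.23 ± 0.29), TRIB2.6 (-0.93 ± 0.22) and PELI3.10 (-1.55 ± 0.37), again each at 0.998. WWTR1 encodes TAZ, a coactivator of the Hippo pathway, and its guide 1 had 26.8, 15.0 and 9.34 CPM, then 713, 504 and 265 CPM, then 45.8, 32.1 and 22.3 CPM. The replicates of this guide differed far more than the doses, yet each went down at both steps.

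Steady orders in all 3 replicates were rare. By the guide mean, 6 genes were ordered upwards at both steps in each replicate (0.537% of 1117), namely FBXO43, PER2, RNF181, TRIM25, UBA7 and TRAF5. UBA7 activates ISG15, an interferon-induced modifier, and TRIM25 and RNF181 are RING-type ligases. The downward order was held by 7 genes (0.627%), namely TADA2B, TRAF3, MEX3A, CCT2, FOXL2, UBE2C and TTC3. CCT2 is a subunit of the TRiC chaperonin and UBE2C the conjugating enzyme of the anaphase-promoting complex. Among guides, 34 were ordered upwards (0.329% of 10337) and 72 downwards (0.697%). These counts are descriptions, carry no test and were not compared with the share that doses in random order would give.

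By the guide mean and among single guides, though not by summed counts, the middle dose was set apart more often by a low than by a high level. The middle dose coefficient is the level at 200 µM minus the mean of the levels at 0 and 1500 µM. By the guide mean, 59 genes were lowest at 200 µM in all 3 replicates (5.28%) and 29 highest (2.6%), and among guides 429 were lowest (4.15%) and 342 highest (3.31%). The coefficient was below 0 for 62.4% of genes by the guide mean, against 50.1% by summed counts and 52.8% by the median over guides. The guide mean share was 64.6% with a pseudocount of 1 CPM and 59.2% with at least 50 counts in 3 libraries. As given above, guides without a count were also most frequent at 200 µM in all 3 replicates, and their part in this shift was not tested. No gene passed the test of this coefficient in either direction by either measure (edgeR on sums and limma on guide means). At an unadjusted p under 0.05 the guide mean gave 13 peaks (1.16%) and 61 dips (5.46%), and the sums gave 24 peaks (2.15%) and 16 dips (1.43%).

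The lowest p for a dip belonged to FBXW5, a substrate receptor of cullin ligases. Its guide means were 6.12, 5.55 and 6.01 in replicate 1, 5.48, 4.80 and 5.59 in replicate 2, and 6.31, 5.91 and 6.21 in replicate 3, so 200 µM was the lowest in each. The coefficient was -0.54 ± 0.13 (limma, adjusted p = 0.147), and by the sum it was -0.20 (edgeR, adjusted p = 0.993). SUMO2, a ubiquitin-like modifier, followed with -0.62 ± 0.19 (adjusted p = 0.518), CCNB1, the mitotic cyclin B1, with -0.51 ± 0.15, CBX8, a Polycomb reader, with -0.43 ± 0.14, and NKD2, a Wnt inhibitor, with -0.41 ± 0.13 (adjusted p = 0.545). The genes with the widest dips in all replicates were FBXL19, FBXW5, MAD1L1, SIRT2 and PSMB9, among which MAD1L1 serves the spindle checkpoint and PSMB9 the immunoproteasome.

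Peaks at 200 µM were led by TNKS2, a tankyrase that marks AXIN for degradation in Wnt signalling. It stood at 6.62, 6.91 and 6.64, then 5.43, 5.85 and 5.62, then 5.55, 6.23 and 6.02, with a coefficient of 0.35 ± 0.13 (limma, adjusted p = 0.597). TNKS2 was highest at 200 µM in each replicate. KCTD4 (0.37 ± 0.15), NGFR (0.34 ± 0.14), RUSC1 (0.33 ± 0.13) and MARCH5 (0.32 ± 0.14) were next (adjusted p = 0.601 to 0.653). RALB, PELI2 and ZNF645 were also highest at 200 µM in every replicate. By summed counts KCTD11 (0.47), SPOPL (0.40), MAEA (0.39), RALB (0.35) and BTRC (0.33) led the peaks, and WDR26 (-0.37), FBXO32 (-0.34), ATG3 (-0.32), XBP1 (-0.32) and BFAR (-0.31) the dips, each with an edgeR adjusted p of 0.993.

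Single guides did not pass the middle dose test either, with 119 peaks (1.15%) and 137 dips (1.33%) at an unadjusted p under 0.05. LNX2.4 had 445, 638 and 368 CPM, then 17.8, 60.1 and 13.4 CPM, then 77.9, 105 and 37.0 CPM, so the middle dose was the highest in each replicate (edgeR, adjusted p = 0.999). HM13.2, lowest at the middle dose in each, had 285, 103 and 119 CPM, then 739, 320.4 and 484 CPM, then 90.2, 38.1 and 71.1 CPM, a coefficient of -0.94 ± 0.24. UBOX5.9 (2.31 ± 0.64) and PEX2.1 (1.04 ± 0.29) were the other peaks of lowest p, and DNM1L.7 (-3.11 ± 0.84) and MED21.8 (-4.80 ± 1.36) the other dips. DESeq2 called 2 peaks (0.0193%), CUL9.4 and NEURL1B.8, and 2 dips (0.0193%), PA2G4.9 and DNM1L.7. Its coefficients were 14.6 for CUL9.4, 6.48 for NEURL1B.8, -21.6 for PA2G4.9 and -3.33 for DNM1L.7. The reason for the extreme sizes was not tested, and limma-voom called no peak and no dip. DNM1L.7 had no count in 1 and MED21.8 none in 2 of the 3 libraries at 200 µM.

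Gene groups were set beside the median guide mean slope of all 1117 genes, 0.0016 log2 per step. The lists, here and in the next paragraphs, were chosen with earlier results of these data known. Their counts are therefore descriptions and do not test whether a group changed. Over all genes 50.9% of slopes lay above 0 and 49.1% below by the guide mean, and 48.7% above and 51.3% below by summed counts. Ligases, adaptors and IAPs of NF-κB signalling had 26 measured members of 30 listed, and TRAF3 alone passed, as lower. Slopes were below 0 in 18 and above 0 in 8, with a median of -0.03. BIRC2, the cIAP1 ligase that works with TRAF3, had -0.17 ± 0.06 (limma, adjusted p = 0.319) with 8 of 10 guides below 0, of which BIRC2.1 went down at each step in all 3 replicates, and SHARPIN, of the linear ubiquitin ligase, -0.18 ± 0.06 (adjusted p = 0.319). TRAF2 had -0.19 (adjusted p = 0.457) and TRAF6 -0.18 (adjusted p = 0.549). By summed counts TRAF2 had -0.14 (edgeR, adjusted p = 0.591) and TRAF6 -0.07 (edgeR, adjusted p = 0.845). An unadjusted p under 0.05 was reached by 6 of 26 as lower, TRAF3 among them, and by none as higher, beside 3.58% and 4.57% of all genes. Because of how the list was chosen, this difference is no test of the group. TRAF5 was one of the genes ordered upwards in every replicate, with a slope of 0.13. BIRC3, also of this list, had a guide mean slope of 0.10 and was highest at 200 µM in every replicate.

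Among Polycomb genes, 12 measured of 21 listed, none passed the test of the middle dose. The coefficient was below 0 in 12 of 12 by the guide mean (62.4% of all genes) and in 12 of 12 by summed counts (50.1% of all genes), with medians of -0.18 and -0.10 beside -0.04 and -0.0002 over all genes. The largest by the guide mean were CBX8 at -0.43, SUZ12, which holds the methylating complex together, at -0.41 and RNF2, the ubiquitin ligase of the other Polycomb complex, at -0.39, none past the test (limma, adjusted p = 0.518, 0.597 and 0.653). CBX8 had 6.14, 5.91 and 6.53, then 5.96, 5.62 and 5.71, then 6.44, 5.62 and 6.13. CBX8 and RNF2 were the 2 of the 12 that were lowest at 200 µM in each replicate. Slopes with dose lay below 0 in 8 of 12, led by EED, followed by PCGF6 with -0.19 (limma, adjusted p = 0.474).

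Proteasome subunits had 42 measured of 45, with slopes above 0 in 29, a median of 0.04 and no member past the test. Their members of lowest p went both ways, since PSMA4 had -0.29 and PSMA6 0.25, and PSMC6 had 0.24 with 4 tested guides (adjusted p = 0.462). In the neddylation and cullin list, 20 measured of 33, slopes were above 0 in 14, with a median of 0.08. NEDD8 had 0.23 and UBE2M, its conjugating enzyme, 0.21, with slopes above 0 in 5 of 5 tested guides each (limma, adjusted p = 0.462 and 0.474). The CTLH ligase, 11 measured of 11, had a median of 0.08 with 9 above 0, among them its scaffold RANBP9 at 0.24 ± 0.09 with 10 of 10 guides above 0 (limma, adjusted p = 0.317). MKLN1 of the same list went the other way, at -0.17 (limma, adjusted p = 0.525) with 8 of 10 guides below 0. It is the member that DESeq2 called lower by sums. Fanconi anaemia and homologous recombination genes, 9 of 22, had a median of 0.09 with 7 above 0, where TRAIP (0.26), RFWD3 (0.19) and UBE2T (0.19) had an adjusted p of 0.457 to 0.598. Mediator subunits had slopes above 0 in 10 of 13, with a median of 0.06, and MED6 had 0.26 with 7 of 7 tested guides above 0 (limma, adjusted p = 0.324).

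The remaining lists had no member past edgeR's test of sums or limma's test of guide means, although DESeq2 and limma-voom called UBE2A of the RAD6-RAD18 list and EP300 of the histone acetylation list by sums. The anaphase-promoting complex with its regulators had 10 slopes above and 10 below 0 and a median of 0.00, the RAD6-RAD18 list 5 and 5 with 0.02, and the HECT ligases 15 and 13 with 0.00. For the p53 ligases the counts were 5 above and 7 below, for histone acetylation 3 and 4, and for TRiC and HSP70 chaperones 2 and 4. In the Wnt list 9 of 12 lay below 0 by the guide mean, with a median of -0.05, and 7 of 12 by summed counts. AXIN1, the scaffold of the β-catenin destruction complex, had a guide mean slope of 0.17 (limma, adjusted p = 0.474). Cell cycle kinases and cyclins had slopes above 0 in 11 of 16 by the guide mean and in 5 of 16 by summed counts. Their middle dose median was -0.19 by the guide mean and -0.09 by summed counts, beside -0.04 and -0.0002 over all genes. By symbol prefix, slopes lay above 0 in 37 of 68 TRIM genes, 23 of 37 KLHL genes, 15 of 37 FBXO genes, 7 of 21 KCTD genes, 8 of 18 ASB genes, 6 of 18 FBXL genes and 3 of 9 FBXW genes. Their members of lowest p included RFWD2, the p53 ligase COP1, at 0.25 (limma, adjusted p = 0.319), ANAPC1, the largest subunit of the anaphase-promoting complex, at 0.21 (adjusted p = 0.457), TRIP12 of the HECT class at 0.18 (adjusted p = 0.549), KLHL10 at 0.22 (adjusted p = 0.356) and ASB10 at 0.20 (adjusted p = 0.319). Others of lowest p in these lists lay below 0. Among them were FBXO38 at -0.16 (limma, adjusted p = 0.501), TRIM64B at -0.19 (0.549) and ASB11 at -0.15 (0.474). HSPA5, with 1 tested guide, had -0.33 (limma, adjusted p = 0.557). This gene was unstable. Limma called it lower with dose coded linearly (adjusted p = 0.0127), without 0 µM replicate 2 (7.36e-08) and without all of replicate 2 (4.73e-06). TRIM genes had a middle dose coefficient below 0 in 54 of 68 by the guide mean and in 33 of 68 by summed counts.

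FBXO5, which the series title names, inhibits the anaphase-promoting complex in the somatic cell cycle. Its guides were scarce: 4 of 10 were tested, and their counts summed to 7.32, 0 and 4.31 CPM in replicate 1, 108, 84.0 and 62.1 CPM in replicate 2, and 25.6, 9.89 and 0 CPM in replicate 3. Replicates 2 and 3 went down at each step, and replicate 1 was lowest at 200 µM. All 4 guides had slopes below 0. The slope was -0.28 ± 0.13 by the guide mean (limma, adjusted p = 0.474) and -0.81 ± 0.48 by the sum (edgeR, adjusted p = 0.591). Neither passed, and at counts this low a change with dose could be missed. HUWE1, a HECT-type ligase chosen here after its values were seen, had 0.20 ± 0.12 by the guide mean (limma, adjusted p = 0.740) and 0.09 ± 0.16 by the sum (edgeR, adjusted p = 0.880). Slopes were above 0 in 8 of 10 guides, but guides of this gene were scarce too. Untreated counts in replicates 1, 2 and 3 were 0, 5 and 0 for HUWE1.6, and 3, 0 and 6 for HUWE1.8. They were 3, 0 and 0 for HUWE1.3, and 5, 0 and 0 for HUWE1.1. Such guides met the count filter only because of treated libraries, which favours slopes above 0. The share of 8 of 10 therefore does not show a rise with dose.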

How the data were processed

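A single count table, with raw counts of each guide in all libraries and no guide sequences, was deposited by the authors. Per the submitters' processing notes, cutadapt 1.18 and MAGeCK 0.5.8 were used and hg19 was named, with no further setting stated in the sources. The counts were used without change. Of 1117 gene symbols, 1076 were current in the RefSeq table of assembly GRCh38.p14, 40 were found through an older symbol with 1 match and 1 was left as deposited. No coordinate was used.

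Tested guides had 10 or more counts in 3 or more of 9 libraries. The 385 guides just inside this limit, with exactly 3 such libraries, had a median mean count of 12.2, and the 257 just outside, with 2, had 5.67. In all, 687 genes had every guide tested and 15 had fewer than 5. Guides and gene sums were fitted with edgeR 4.0.16 (TMM factors, robust quasi-likelihood), and guide means of log2(CPM + 5) with limma 3.58.1 (trend, robust), in R 4.3.3. Each model held the replicate number and the dose step, and the middle dose models also the deviation at 200 µM. An edgeR SE is the absolute log2 value over the square root of F. Benjamini-Hochberg adjustment ran over all guides or genes, at 0.05. Library measures were tested with Python 3.11.15 over 216 exact arrangements within replicate numbers. The code was tested on simulated data.

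The replicate numbers were kept as a block because libraries of the same number at different doses deviated together from the dose means, with correlations of 0.743 to 0.830 in 9 of 9 pairs, above the limit of 0.1. The pairing comes from the data, since the labels do not say what a number marks.

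Named were, for the trend and the middle dose in each gene test, up to 10 genes per direction past the threshold, or the 5 of lowest p where fewer than 5 passed. To these were added up to 5 guides per direction by trend p and 3 by middle dose p, up to 5 genes per pattern by the smallest within-replicate span, up to 3 members per list by p in the guide mean trend, and FBXO5. Not every list member within this rule is printed, and a gene it names is not reported here. Other genes, among them SOCS1, KEAP1, WSB2, MKLN1, CUL9, NEURL1B, PA2G4, TRAF5, UBE2C, TTC3, TRAF2, TRAF6, SUZ12, RNF2 and HUWE1, were chosen after their values were seen. The members and the lists were chosen with earlier results of these data known. Alternatives covered the block, DESeq2 1.42.0, limma-voom, size factors, count filters, dose coding, the pseudocount, the median over guides, the most abundant guide and each library or replicate number left out.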

Additional observations from a re-analysis of the deposited data

How the results depend on the processing

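Without the replicate block no gene was called in either direction by either measure, so the calls of 1 lower gene by summed counts and 2 by the guide mean became 0 and 0. DESeq2 with the block called 2 guides higher and 4 lower with dose, 2 guides peaking and 2 dipping at 200 µM, and 6 genes higher and 8 lower by summed counts, and limma-voom called 36 guides lower and 3 genes higher. Dose coded linearly left 0 genes lower by summed counts and gave 2 higher by the guide mean. With that coding HSPA5 passed as lower by the guide mean and FOXL2 did not. For genes lower by the guide mean, the count was 1 with no count filter and with dose as 3 levels, and 0 with at least 50 counts in 3 libraries, a pseudocount of 1 CPM or the median over guides, and 1 gene was higher with no count filter. With the median over guides 10 genes rather than 6 were ordered upwards and 4 rather than 7 downwards. Leaving out a library or replicate number gave, by summed counts, 0 to 2 genes higher and 0 to 1 lower, and by the guide mean 0 to 2 higher, 0 to 6 lower and 0 to 3 dips, with 6 lower without 1500 µM replicate 3 and 3 dips without 200 µM replicate 2. The EP300 sum turned to -0.0261 and the UBE2A guide mean to -0.0453 without the most abundant guide, and UBE2A to -0.21 for the median. The EP300 guide mean turned to 0.0158 with at least 50 counts and 0.0574 for the median, and lay between -0.0559 and 0.0138 when a library or replicate number was left out, above 0 without 1500 µM replicate 3 (0.0138) and without replicate 2 at all doses (0.0137). The cause of these changes was not tested. TRAF3 by the guide mean lost its call without the block, with 50 counts, with the pseudocount of 1, with the median and in 6 of 12 fits that left out libraries (adjusted p 0.00843 to 0.391). The counts hold little information on guides near 0 counts, which are most of those for FBXO5.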
